A study of Mus musculus with 8 samples.

Results

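The 10 genes described here encode the NF-κB subunits (Nfkb1, Nfkb2, Rela, Relb and Rel) and 5 of the proteins that restrain or modify them (Nfkbia, Nfkbib, Nfkbie, Nfkbiz and Tnfaip3). They were chosen by symbol from the 53697 genes of the deposited count table, and all 10 had enough counts to be tested, with 18322 genes tested in total. RNA was measured in 8 libraries of mammary tumor cells from 4 MMTV-PyMT mice. In these mice the polyoma virus middle T oncogene is driven by the mouse mammary tumor virus promoter, and the study describes the tumors as luminal-like on a C57BL/6 background. Each mouse also carried a reporter of Dll1, a Notch ligand. In 2 mice, PyMT-Dll1GFP, a GFP-IRES-Cre-ERT2 cassette was knocked in at Dll1. In the other 2, PyMT-Dll1mCh, mCherry was carried on a bacterial artificial chromosome. Tumors were dissociated with collagenase and hyaluronidase, cells stained for CD45, CD31 or Ter119 were removed, and each mouse gave 1 library of reporter-positive (Dll1+) and 1 of reporter-negative (Dll1-) cells. The ages of the mice were not given in the labels. The question addressed is how Dll1+ tumor cells differ from Dll1- tumor cells, and the study asked it of NF-κB signaling in particular.

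NF-κB is a family of transcription factors that act as dimers. In resting cells the dimers are held in the cytoplasm by IκB proteins. In the canonical route the IκB kinase complex marks IκB for destruction, and dimers of p65 (Rela) or c-Rel (Rel) with p50 (from Nfkb1) enter the nucleus. In the non-canonical route the kinase NIK (Map3k14) leads to processing of p100 (Nfkb2) to p52, which pairs with RelB (Relb). Nfkbia, Nfkbie, Nfkbiz, Tnfaip3, Nfkb2, Relb and Rel are themselves known targets of NF-κB, which makes several of them feedback regulators. In the mammary gland the pathway is known for its part in development and involution, and in tumors for inflammatory signaling.

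On GRCm38 the subunit genes lie at chr3:135584655-135691547 (Nfkb1, minus strand), chr19:46304320-46312385 (Nfkb2, plus), chr19:5637483-5648130 (Rela, plus), chr7:19606217-19629438 (Relb, minus) and chr11:23736847-23770970 (Rel, minus). The genes of the inhibitors and regulators lie at chr12:55489410-55492647 (Nfkbia, minus), chr7:28758251-28767512 (Nfkbib, minus), chr17:45555703-45563169 (Nfkbie, plus), chr16:55811375-55838899 (Nfkbiz, minus) and chr10:19000910-19015657 (Tnfaip3, minus). All 10 are annotated as protein-coding.

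κB sites, the sequences that NF-κB dimers bind, lie close to the start of several of these genes, and the stretches that hold them are shown because Nfkbia, Tnfaip3 and Nfkb2 were higher in Dll1+ cells while Rel and Nfkbie, which also hold such letters, did not pass the test. RefSeq promoter windows on GRCm38, each of 300 bases (250 before and 50 after the start of a transcript), were matched by symbol for 7 of the 10 genes, Nfkb2, Rela, Rel, Nfkbia, Nfkbib, Nfkbie and Tnfaip3. Nfkb1, Relb and Nfkbiz had no window in the table. The degenerate 10-base κB consensus, searched on both strands, was found in 7 of the 10 windows of these genes, which belong to 5 of the 7, and in 4.51% of all 32851 windows. It was not found in the windows of Rela and Nfkbib. The windows are not all separate: those of Nfkb2 that begin at chr19:46305445 and chr19:46305680 overlap and share a match. A looser pattern, GGGNNNNNCC on either strand, was present in 50.8% of all windows and so separates few genes. Capitals mark the consensus match, positions are counted from the start of the transcript (the base before it is -1), and each sequence is written 5′ to 3′ on the strand of the gene. The first is the 250 bases before the start of Nfkbia, chr12:55492648-55492897 on the minus strand, with a match that begins at -29.
Nfkbia: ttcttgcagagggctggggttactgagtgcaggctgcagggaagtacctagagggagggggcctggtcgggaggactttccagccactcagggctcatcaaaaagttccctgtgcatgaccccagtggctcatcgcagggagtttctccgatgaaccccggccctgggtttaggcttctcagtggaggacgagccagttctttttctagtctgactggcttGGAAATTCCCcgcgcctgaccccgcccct
The others are 30-base stretches around a match. They begin their matches at -12 (chr10:19015403-19015432, minus strand) and -125 (chr10:19015516-19015545, minus strand) for Tnfaip3, at -39 (chr19:46304688-46304717, plus strand) for Nfkb2, at -92 (chr11:23771042-23771071, minus strand) for Rel and at -106 (chr17:45555584-45555613, plus strand) for Nfkbie.
Tnfaip3 (-12): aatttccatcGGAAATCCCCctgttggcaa
Tnfaip3 (-125): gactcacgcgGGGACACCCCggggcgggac
Nfkb2: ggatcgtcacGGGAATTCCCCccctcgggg
Rel: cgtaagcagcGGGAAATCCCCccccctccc
Nfkbie: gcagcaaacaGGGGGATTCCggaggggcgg
In Rel and Nfkb2 the capitals cover a pair of overlapping matches. The first match of each pair fits the consensus on both strands, and the second on the antisense strand only. Further matches of Nfkb2, at -11 in the same window and at -236, 10 and -225 in its other windows, are not shown. These are matches of letters, and no binding was measured.

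Levels below are CPM, counts scaled to a common library size, after TMM normalization, which scales the libraries to each other. Total counts were 27301396 to 123907626 per library, with a median of 38191068, and 3 counts, taken as the floor of detection, corresponded to 0.0240 to 0.105 CPM. Dll1 itself, the gene behind the reporters, was at 7.61 and 13.7 CPM in Dll1- and 87.5 and 138 CPM in Dll1+ cells of the PyMT-Dll1GFP mice, and at 34.7 and 50.3 against 203 and 250 CPM in the PyMT-Dll1mCh mice, so that each sort matched its label. The genes of interest rested on counts well above the floor, from 301 counts for Nfkbie in a Dll1- library to 46199 counts for Nfkbia in a Dll1+ library. The epithelial marker Epcam was at 899 to 1240 CPM, whereas Ptprc (CD45) was at 2.88 to 12.7 and Pecam1 (CD31) at 13.7 to 98.2 CPM. The summed CPM of 13 fibroblast and pericyte markers stood apart in the PyMT-Dll1mCh mice, at 9081 and 25290 in Dll1- and 3851 and 4017 in Dll1+ cells, against 1309 to 1533 in the 4 PyMT-Dll1GFP libraries.

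To rank the genes by level, CPM was divided by the length of the longest annotated transcript. On this scale Nfkbia, which encodes IκBα, was the most abundant of the 10 in all 8 libraries, at 418 ± 144 CPM per kb (SD, n = 8). Nfkbiz followed at 97.3 ± 46.5, Tnfaip3 at 55.8 ± 25.2 and Rela at 50.1 ± 9.24 CPM per kb. Nfkbiz was above Tnfaip3 in each of the 8 libraries, whereas Rela changed places with them between libraries. Nfkb1 (25.7 ± 3.51), Nfkb2 (18.3 ± 3.08), Nfkbib (13.7 ± 2.66), Relb (9.50 ± 2.57), Nfkbie (5.77 ± 1.90) and Rel (2.29 ± 0.80 CPM per kb) held the same order in each of the 8 libraries, although the ranges of neighbours overlapped across libraries. Of the summed level of the 5 subunits per kb, Rela made up 43.6% to 51.9%, Nfkb1 18.2% to 29.5%, Nfkb2 14.6% to 19.6%, Relb 6.70% to 11.1% and Rel 1.26% to 3.55%. On this scale the RNA of Rel, which encodes c-Rel, a subunit best known from lymphoid cells, was the least abundant in tumor cells of either kind. In CPM without the length, Rel was above Nfkbie in the PyMT-Dll1GFP mice.

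**Figure D1:**
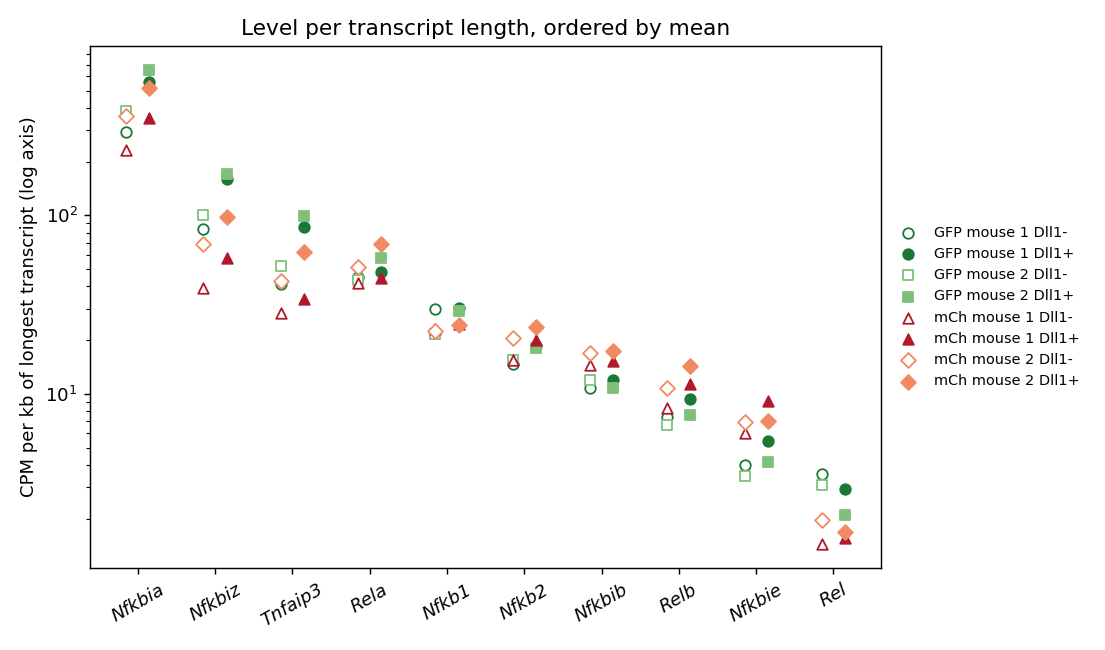
CPM per kb of the longest annotated transcript (log axis) for the 10 genes, ordered by mean, with 1 symbol for each of the 8 libraries; open symbols are Dll1- and filled symbols Dll1+ cells. Nfkbia was highest and Rel lowest in all 8 libraries, at means of 418 and 2.29 CPM per kb.

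Dll1+ and Dll1- cells of the same mouse were compared over the 4 mice. Of the 10 genes, 5 were higher in Dll1+ cells and 0 were lower at an adjusted p under 0.05 (edgeR quasi-likelihood test with the mouse as a block, Benjamini-Hochberg over 18322 genes). The background was 6.98% of all tested genes called higher and 7.04% called lower. The genes that rose were Nfkbia, Nfkbiz, Tnfaip3, Relb and Nfkb2. The 3 genes of negative and nuclear regulators rose by about the same factor (1.62-fold to 1.63-fold), and Relb and Nfkb2, the pair of the non-canonical dimer, by 1.28-fold and 1.21-fold. The same direction was seen in 4 of 4 mice for 8 of the 10 genes, all of them higher in Dll1+ cells, against 21.4% of all tested genes higher and 19.9% lower in 4 of 4. The median log2 fold change of the 10 was 0.31, and that of all tested genes was -0.00. Because these are bulk libraries, more or fewer cells of a type that expresses a gene and more or less RNA of it per cell cannot be told apart.

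Among the subunits, Relb, the partner of p52, was at 24.4 and 21.8 CPM in Dll1- and 30.6 and 25.1 CPM in Dll1+ cells of PyMT-Dll1GFP mice 1 and 2. In the PyMT-Dll1mCh mice it was at 27.2 and 35.4 CPM in Dll1- and 37.3 and 47.1 CPM in Dll1+ cells. Each Dll1+ library was thus above its own partner, while the 4 Dll1- and 4 Dll1+ libraries overlapped as groups. The difference on the log2 scale was 0.35 (SE 0.07, adjusted p = 0.0257, edgeR), higher in 4 of 4 mice.

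Nfkb2 encodes p100, which both inhibits dimers and is the precursor of p52. It was at 56.6 and 59.8 CPM in Dll1- and 70.9 and 69.4 CPM in Dll1+ cells of the PyMT-Dll1GFP mice, and at 59.8 and 79.3 against 77.3 and 91.4 CPM in the PyMT-Dll1mCh mice. Apart from the Dll1- library of PyMT-Dll1mCh mouse 2, every Dll1- library was below every Dll1+ library. The difference on the log2 scale was 0.28 (SE 0.05, adjusted p = 0.0286, edgeR), with mice between 0.20 and 0.37. Nfkb2 shares 299 exonic bases with Psd on the other strand, which had at most 268 counts where Nfkb2 had up to 7466.

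Rela and Nfkb1, whose products p65 and p50 form the main canonical dimer, did not pass the test. Rela was at 123 and 118 CPM in Dll1- and 131 and 156 CPM in Dll1+ cells of the PyMT-Dll1GFP mice, and at 113 and 140 against 121 and 188 CPM in the PyMT-Dll1mCh mice. The within-mouse log2 differences fell into a small pair (0.09 and 0.10, mouse 1 of each reporter) and a larger pair (0.40 and 0.43, mouse 2 of each reporter), and the estimate over the mice was 0.26 (SE 0.08, adjusted p = 0.0900, edgeR). Nfkb1 was at 123 and 89.7 CPM in Dll1- and 126 and 121 CPM in Dll1+ cells of the PyMT-Dll1GFP mice, and at 95.6 and 93.2 against 103 and 101 CPM in the PyMT-Dll1mCh mice. Only PyMT-Dll1GFP mouse 2 showed a within-mouse log2 difference above 0.11, at 0.43, and the estimate over the mice was 0.17 (SE 0.08, adjusted p = 0.196, edgeR).

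Rel, which encodes c-Rel, was the single gene of the 10 with a negative estimate. It was at 26.6 and 23.0 CPM in Dll1- and 22.0 and 15.5 CPM in Dll1+ cells of the PyMT-Dll1GFP mice, and at 10.7 and 14.7 against 11.6 and 12.5 CPM in the PyMT-Dll1mCh mice. It was lower in Dll1+ cells of 3 mice and higher in PyMT-Dll1mCh mouse 1, with an estimate of -0.24 on the log2 scale (SE 0.12, adjusted p = 0.224, edgeR).

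Nfkbia, the feedback inhibitor that is degraded and resynthesized when the canonical route is on, showed the lowest adjusted p of the 10. It was at 462 and 603 CPM in Dll1- and 879 and 1033 CPM in Dll1+ cells of the PyMT-Dll1GFP mice, and at 367 and 566 against 551 and 820 CPM in the PyMT-Dll1mCh mice. Within each mouse the Dll1+ library was 1.45-fold to 1.90-fold higher. On the log2 scale the rise was 0.71 (SE 0.09, adjusted p = 0.0105, edgeR).

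Nfkbiz encodes IκBζ, a nuclear IκB that acts as a coactivator of p50 on secondary target genes. Its levels were 343 and 411 CPM in Dll1- and 659 and 700 CPM in Dll1+ cells of the PyMT-Dll1GFP mice, and 162 and 285 against 238 and 405 CPM in the PyMT-Dll1mCh mice. Dll1+ libraries were 1.42-fold to 1.92-fold above their partners, a log2 rise of 0.69 (SE 0.09, adjusted p = 0.0113, edgeR). The Dll1+ libraries of the PyMT-Dll1mCh mice lay below the highest Dll1- library of the PyMT-Dll1GFP mice, so the difference was visible within mice and not between the pooled groups.

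Tnfaip3 encodes A20, a ubiquitin-editing enzyme that shuts off signaling to the IκB kinase complex. It was at 257 and 323 CPM in Dll1- and 531 and 615 CPM in Dll1+ cells of the PyMT-Dll1GFP mice, and at 176 and 267 against 212 and 387 CPM in the PyMT-Dll1mCh mice. The rise was 2.07-fold and 1.91-fold in the former and 1.21-fold and 1.45-fold in the latter. Over the 4 mice the log2 rise was 0.70 (SE 0.14, adjusted p = 0.0321, edgeR).

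The other IκB genes did not pass the test. Nfkbie (IκBε, a feedback inhibitor with slower kinetics) was at 11.9 and 10.4 CPM in Dll1- and 16.4 and 12.5 CPM in Dll1+ cells of the PyMT-Dll1GFP mice, and at 18.1 and 20.8 against 27.4 and 21.1 CPM in the PyMT-Dll1mCh mice. All 4 mice were higher in Dll1+ cells, PyMT-Dll1mCh mouse 2 by a log2 difference of 0.02, and the estimate over the mice was 0.34 (SE 0.11, adjusted p = 0.0972, edgeR). Nfkbib (IκBβ, which is not strongly induced by NF-κB) was at 22.1 and 24.7 CPM in Dll1- and 24.6 and 22.2 CPM in Dll1+ cells of the PyMT-Dll1GFP mice, and at 29.7 and 34.9 against 31.3 and 35.6 CPM in the PyMT-Dll1mCh mice. Its estimate over the mice was 0.03 (SE 0.07, adjusted p = 0.832, edgeR). Nfkbib shares 42 exonic bases with Sirt2 on the other strand, which had up to 9095 counts against 3712 for Nfkbib, so its counts are less certain than those of the other genes. Beside Rela, the level of Nfkbia per kb was 6.48 and 8.80 times as high in Dll1- and 11.6 and 11.4 times as high in Dll1+ cells of the PyMT-Dll1GFP mice. In the PyMT-Dll1mCh mice this ratio was 5.58 and 6.98 in Dll1- against 7.81 and 7.50 in Dll1+ cells, and the smallest step was in mouse 2 of this reporter.

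**Figure D2:**
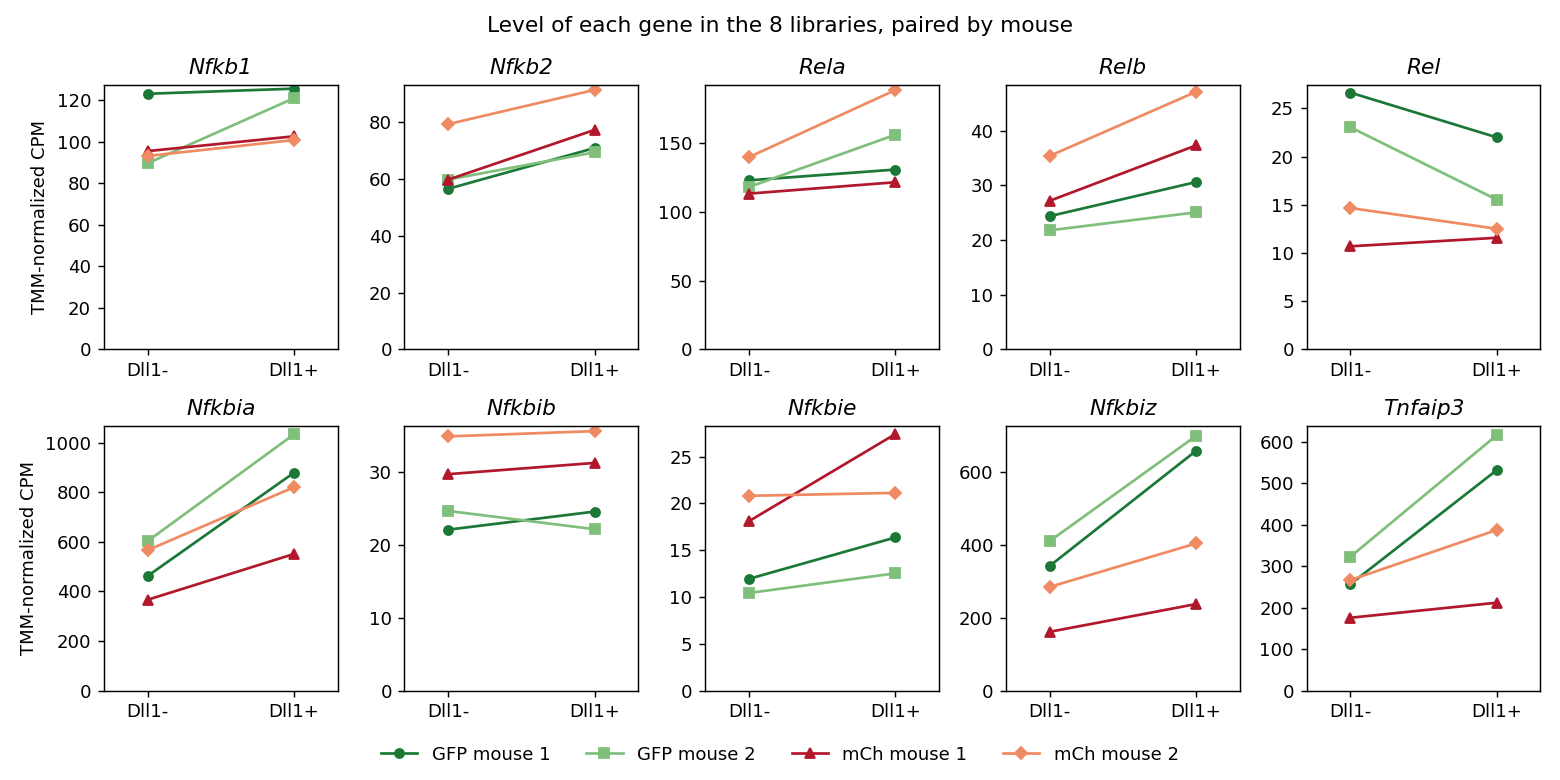
TMM-normalized CPM of each of the 10 genes in Dll1- and Dll1+ cells, with a line joining the 2 libraries of a mouse; green marks PyMT-Dll1GFP and red PyMT-Dll1mCh mice, and each panel has its own axis from 0. The lines of Nfkbia, Nfkbiz and Tnfaip3 rose in all 4 mice, from 367 to 551 CPM for Nfkbia in PyMT-Dll1mCh mouse 1 and from 603 to 1033 CPM in PyMT-Dll1GFP mouse 2, while Rel fell in 3 of the 4.

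Genes that answer to the dissociation of tissue moved with these differences. The summed CPM of 28 immediate-early genes was 28292 and 32083 in Dll1- against 43604 and 41952 in Dll1+ cells of the PyMT-Dll1GFP mice, and 19775 and 26502 against 29687 and 34731 in the PyMT-Dll1mCh mice. Of the 28, 12 were called higher and 0 lower over the 4 mice, with a median log2 fold change of 0.48, and Atf3 (0.66, SE 0.08), Fos and Egr1 were among them. The summed CPM of 10 basal mammary markers also was higher in Dll1+ cells of each mouse, at 235 against 492 and 193 against 293 in the PyMT-Dll1GFP mice and at 388 against 1484 and 731 against 1647 in the PyMT-Dll1mCh mice. The part of either in the differences of Nfkbia, Nfkbiz, Tnfaip3, Relb and Nfkb2 was not tested.

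The effect of Dll1 status was then estimated for each reporter. In the PyMT-Dll1GFP mice, Nfkbia rose 1.80-fold (log2 0.85, SE 0.10, adjusted p = 0.00775), Nfkbiz 1.81-fold (log2 0.86, SE 0.10, adjusted p = 0.00619) and Tnfaip3 1.99-fold (log2 0.99, SE 0.10, adjusted p = 0.00537, edgeR). These were the 3 genes called, and 0 were lower, against a background of 4.29% higher and 4.84% lower. For these 3 genes both Dll1+ libraries of the PyMT-Dll1GFP mice were above both Dll1- libraries. Relb and Nfkb2 had log2 fold changes of 0.27 each, with adjusted p of 0.127 and 0.0968, and Rel had -0.42 (SE 0.14, adjusted p = 0.112). The fold of Nfkbib was 0.998.

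In the PyMT-Dll1mCh mice, Nfkbia rose 1.48-fold (log2 0.56, SE 0.10, adjusted p = 0.0242), Nfkbiz 1.44-fold (log2 0.53, SE 0.10, adjusted p = 0.0238) and Relb 1.35-fold (log2 0.43, SE 0.09, adjusted p = 0.0311, edgeR). Here too 3 genes were called higher and 0 lower, and the background was 5.51% higher and 6.25% lower. The fit held all 8 libraries, so both reporters shared 1 estimate of the spread. With each reporter fitted alone, 0 of the 10 and 0 of all genes were called in PyMT-Dll1mCh mice, and 3 of the 10 in PyMT-Dll1GFP mice. For Tnfaip3 the log2 estimate was 0.40 (SE 0.10), at an adjusted p of 0.0553, and for Nfkb2 it was 0.29 (SE 0.08), at an adjusted p of 0.0691. The Dll1- and Dll1+ libraries of this reporter overlapped for Nfkbia and Nfkbiz, with mouse 2 at the higher level in either state, and did not overlap for Relb. Summed levels of 30 immune markers fell from 1329 and 1465 CPM in Dll1- to 813 and 947 CPM in Dll1+ cells of these mice, while they were 404 and 357 against 551 and 484 CPM in the PyMT-Dll1GFP mice. Between 25 and 30 of the 30 immune markers reached 3 counts in a library. Summed fibroblast and pericyte markers also fell in the PyMT-Dll1mCh mice, from 9081 and 25290 to 3851 and 4017 CPM. Endothelial markers fell from 350 and 792 to 196 and 197 CPM. In the PyMT-Dll1GFP libraries these sums were 1309 to 1533 and 90.5 to 99.3 CPM. The part of immune, fibroblast or endothelial cells in the differences of Nfkbia, Nfkbiz and Relb was not tested.

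When the effects of the 2 reporters were set against each other in the same fit, 0 of the 10 genes differed at an adjusted p under 0.05 (edgeR), and 1 had an unadjusted p under 0.05. Over all genes 0.00546% were called with a higher and 0.0655% with a lower effect in the PyMT-Dll1mCh mice. The gene with the low unadjusted p was Tnfaip3, with a difference of effects of -0.59 on the log2 scale (SE 0.15, adjusted p = 0.191). With DESeq2 or without a filter on low counts, this difference passed the threshold, at -0.62 and -0.61. The differences of effects were -0.32 (SE 0.13, adjusted p = 0.379) for Nfkbiz, -0.29 (SE 0.14, adjusted p = 0.462) for Nfkbia and 0.37 (SE 0.19, adjusted p = 0.485) for Rel. Per mouse, the median log2 difference of the 5 subunits was 0.09 and 0.21 in the PyMT-Dll1GFP and 0.11 and 0.20 in the PyMT-Dll1mCh mice, and that of the 5 inhibitors and regulators was 0.93 and 0.77 against 0.56 and 0.50. The medians of all tested genes in the 4 mice were between -0.02 and 0.04.

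**Figure D3:**
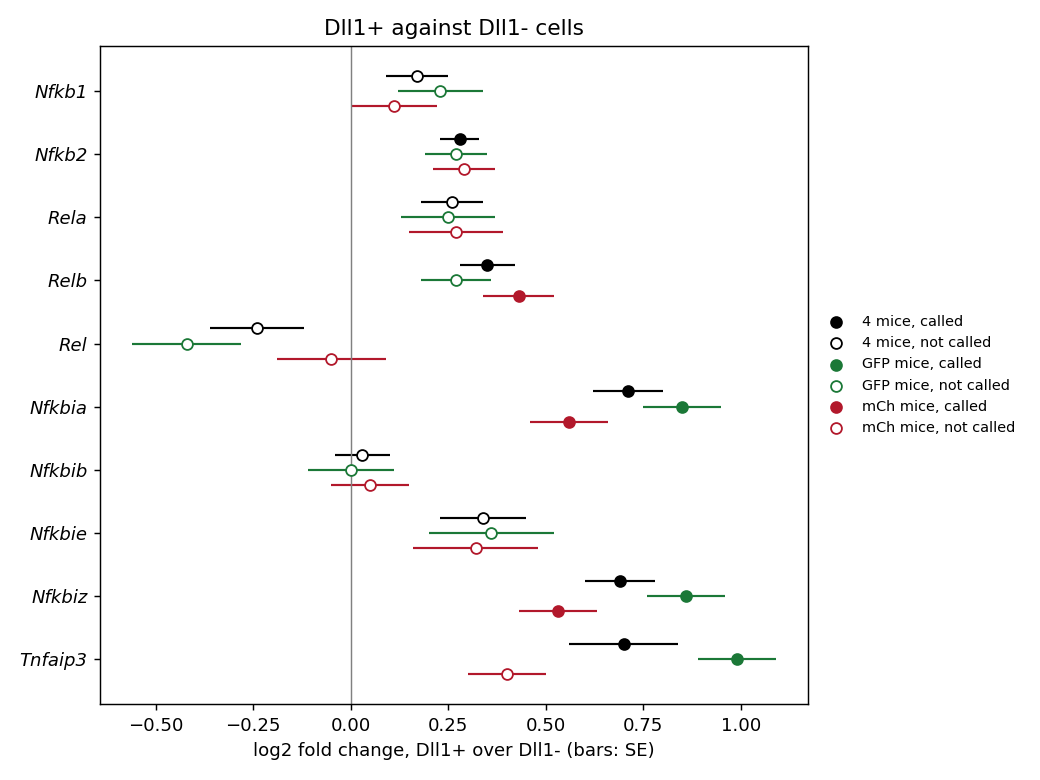
Log2 fold change of Dll1+ over Dll1- cells with its SE for each gene, over the 4 mice (black), in the PyMT-Dll1GFP mice (green) and in the PyMT-Dll1mCh mice (red); filled points have an adjusted p under 0.05. Nfkbia, Nfkbiz and Tnfaip3 lie at 0.69 to 0.71 over the 4 mice, the subunits at 0.35 or less, and Rel at -0.24.

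The calls over 4 mice, of these genes and of all genes, depended on which mouse was left out, and least on PyMT-Dll1mCh mouse 2. Without PyMT-Dll1GFP mouse 1 or without PyMT-Dll1mCh mouse 1, 0 of the 10 genes passed the threshold. Calls over all genes fell from 2568 to 433 and 405 in these fits. Without PyMT-Dll1GFP mouse 2 only Nfkbia and Nfkbiz passed, with 779 calls over all genes. Without PyMT-Dll1mCh mouse 2 the 4 called were Nfkb2, Nfkbia, Nfkbie and Nfkbiz, with 2400 over all genes. The log2 fold changes moved less, between 0.64 and 0.76 for Nfkbia, 0.61 and 0.75 for Nfkbiz, 0.58 and 0.84 for Tnfaip3, 0.32 and 0.40 for Relb and 0.25 and 0.30 for Nfkb2. Leaving out a PyMT-Dll1GFP mouse left 1 mouse of that reporter, so only the sizes of its effects are given. Without mouse 1 or 2 the log2 fold changes were 0.78 or 0.93 (Nfkbia), 0.77 or 0.94 (Nfkbiz) and 0.94 or 1.05 (Tnfaip3). The 3 calls in the PyMT-Dll1mCh mice were lost without either PyMT-Dll1GFP mouse, where calls over all genes fell from 2154 to 1069 and 905 (edgeR).

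Levels were also compared between the reporters. Reporter line, mouse pair and any batch cannot be told apart in these comparisons, which set 2 mice against 2 without a block. In Dll1- cells, Nfkbie was 1.74-fold (log2 0.80, SE 0.20, adjusted p = 0.0199) and Nfkbib 1.38-fold (log2 0.46, SE 0.14, adjusted p = 0.0349) higher in PyMT-Dll1mCh than in PyMT-Dll1GFP mice, and Rel was lower (log2 -0.98, SE 0.22, adjusted p = 0.0150, edgeR). These 2 genes higher and 1 lower of the 10 are near the background of 18.7% higher and 17.9% lower. The counts thus do not set the 10 apart from all genes. Rel was at 10.7 and 14.7 CPM in Dll1- cells of the PyMT-Dll1mCh mice, below the 23.0 and 26.6 CPM of the PyMT-Dll1GFP mice, while the summed level of the 30 immune markers was 1329 and 1465 against 404 and 357 CPM. The part of immune cells in the level of Rel was not tested.

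In Dll1+ cells, 3 of the 10 genes were higher and 1 was lower in PyMT-Dll1mCh mice, and the background was 15.2% higher and 15.4% lower. With only 10 genes, these counts do not set them apart from all genes either. Nfkbie (log2 0.75, SE 0.19, adjusted p = 0.0287) and Nfkbib (log2 0.52, SE 0.13, adjusted p = 0.0292) were again higher, as was Relb (log2 0.60, SE 0.19, adjusted p = 0.0484). Nfkbiz was lower in PyMT-Dll1mCh mice (log2 -1.08, SE 0.33, adjusted p = 0.0480, edgeR), at 238 and 405 against 659 and 700 CPM. Tnfaip3 (log2 -0.94, SE 0.32, adjusted p = 0.0664) and Rel (log2 -0.64, SE 0.22, adjusted p = 0.0662) missed the threshold, although both Dll1+ libraries of 1 reporter were above both of the other for each. Rela, Nfkb1 and Nfkb2 were not called in either cell state. With the mouse as a random block in limma-voom, Nfkbie (adjusted p = 0.0598) and Nfkbib (adjusted p = 0.0555) were no longer called in Dll1- cells, and Tnfaip3 was called in Dll1+ cells (adjusted p = 0.0371). Leaving out a mouse left 1 library of its reporter in each cell state, so only sizes of effects are given for those fits. Over the alternative settings, those fits among them, log2 fold changes in Dll1- cells were 0.68 to 0.89 for Nfkbie, 0.38 to 0.57 for Nfkbib and -1.17 to -0.76 for Rel. In Dll1+ cells they were 0.52 to 0.94 for Nfkbie, 0.43 to 0.58 for Nfkbib, 0.43 to 0.74 for Relb and -1.51 to -0.78 for Nfkbiz. The share of all genes that differed and the fibroblast, endothelial and immune markers that were higher in PyMT-Dll1mCh mice, with endothelial sums of 350 and 792 against 90.5 and 99.3 CPM in Dll1- cells, move with these differences, and their part was not tested.

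**Figure D4:**
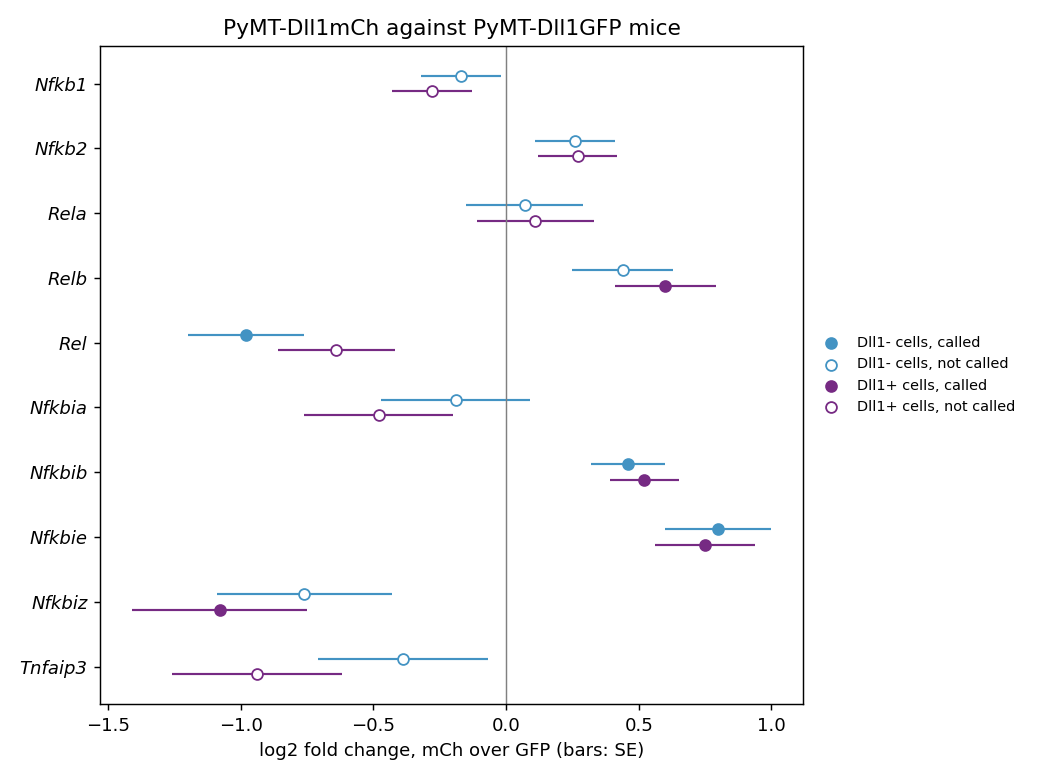
Log2 fold change of PyMT-Dll1mCh over PyMT-Dll1GFP mice with its SE for each gene in Dll1- cells (blue) and Dll1+ cells (purple); filled points have an adjusted p under 0.05. Nfkbie and Nfkbib were called higher in both cell states, though not in Dll1- cells with the mouse as a random block, Rel was at -0.98 and -0.64, and Nfkbiz at -0.76 and -1.08.

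The other genes of the pathway, taken from lists chosen with earlier results of these data known, moved less uniformly over the 4 mice. Of 25 genes of the IκB kinase complex and its upstream adaptors, 2 were higher and 1 lower in Dll1+ cells, with a median log2 fold change of 0.06, near the background of 6.98% higher and 7.04% lower. Map3k8 (the kinase Tpl2, which is held by p105) rose by 0.90 on the log2 scale (adjusted p = 0.0218) and Map3k14, the kinase NIK of the non-canonical route, by 0.41 (adjusted p = 0.0230, edgeR). Irak1, a kinase of Toll-like and interleukin-1 receptors, fell by 0.26 (adjusted p = 0.0255), and Ikbkg, the regulatory subunit NEMO, was at 0.19 on the same scale (adjusted p = 0.0753, edgeR). In the comparison of reporters, 10 of these 25 genes were lower in Dll1- cells and 9 in Dll1+ cells of the PyMT-Dll1mCh mice, and 0 were higher, where the background was 17.9% and 15.4% lower.

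Of 15 other IκB family and ubiquitin-editing inhibitors, 3 were higher and 2 lower over the 4 mice, with a median log2 fold change of 0.03. Rnf11, which acts in a complex with A20, rose by 0.49 (adjusted p = 0.00911) and Tnip2, an A20-binding protein, by 0.33 (adjusted p = 0.0291). Pdlim2, a ligase for nuclear p65, fell by 0.61 (adjusted p = 0.0185), and Bcl3, a nuclear IκB that partners p50 and p52, fell by 0.40 (adjusted p = 0.0227, edgeR). Of 57 listed target genes 55 could be tested, and 9 were higher and 5 lower, with a median of 0.09. For both lists the background is again 6.98% higher and 7.04% lower. The 4 with the lowest p were Tnf (log2 0.93, adjusted p = 0.00534), Traf1 (1.51, adjusted p = 0.00645), Ier3 (0.77, adjusted p = 0.00645) and Lif (1.08, adjusted p = 0.00798, edgeR). In the PyMT-Dll1GFP mice 13 targets were higher and 1 lower, with a median of 0.21, where the background was 4.29% higher and 4.84% lower. In the PyMT-Dll1mCh mice 8 were higher and 9 lower, with a median of -0.24, where it was 5.51% and 6.25%. In the PyMT-Dll1mCh mice 9 of 13 fibroblast, 6 of 13 endothelial and 18 of 28 tested immune markers were also called lower in Dll1+ cells, and their part in the lower targets was not tested.

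The genes most like Nfkbia and Nfkb1 over the 8 libraries were found by the root-mean-square difference of centred log2 CPM, as a description of libraries that share their mice. For Nfkbia, whose own root-mean-square deviation was 0.47, they were Trib1 (0.106), Ifrd1 (0.120) and Csrnp1 (0.128), and Csrnp1 is 1 of the 12 immediate-early genes called higher. For Nfkb1, which varied little (0.18), they were Zc3h7b (0.056), Tpcn2 (0.074) and Dusp19 (0.081).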

How the data were processed

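RNA-seq libraries of sorted Dll1+ and Dll1- tumor cells from 4 mice were used. The authors quantified reads with salmon (version not given in the sources used here) against GENCODE M20 transcripts of GRCm38.p6, collapsed them to genes by means of tximport, and deposited the estimated counts. The deposited counts were whole numbers without normalization. Symbols were matched by identifier to the GENCODE M21 annotation for 53668 of 53697 genes.

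Counts were tested with edgeR 4.0.16 (R 4.3.3) by robust quasi-likelihood F tests after TMM normalization and filterByExpr, with adjustment over 18322 genes at 0.05. One model held Dll1 status and mouse, as in the study; another gave each reporter its own Dll1 effect. Reporters were compared with a group-means model. SE is the log2 fold change over the root of F, and log2 CPM used a prior count of 2. Libraries were paired by the mouse in the labels. The same-mouse deviations from group means correlated at -0.05 in PyMT-Dll1GFP and 0.55 in PyMT-Dll1mCh mice. Floors of 3 counts cover counting error only. Scripts were tested on simulated data. Alternatives used DESeq2 1.42.0 and limma 3.58.1.

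The genes and lists were chosen with earlier results of these data known. Named genes are the 10 members, the 3 most alike to Nfkbia and to Nfkb1, the 4 with the lowest p of each of 3 pathway lists, Dll1, Ptprc, Pecam1 and Epcam. Atf3, Fos, Egr1 and the genes overlapping a member on the other strand were named after their values were seen.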

Additional observations from a re-analysis of the deposited data

Results flagged for a closer look

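In the 4 Dll1- libraries, Nfkb2 of PyMT-Dll1mCh mouse 2 stood apart, at a log2 CPM of 6.31 (79.3 CPM, against 56.6 to 59.8 CPM in the other 3). Its gap to the nearest library exceeded Dixon's critical value for 4 samples. Of 30 such checks, chance alone flags about 1 in 20.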

How the results depend on the processing

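The number of the 10 genes called over the 4 mice was 5 with RLE size factors, without a filter, with at least 10 counts in every library and with libraries thinned to the smallest total, an alternative added after seeing the data, and 6 with DESeq2 (Rela in addition). Leaving out each mouse in turn gave 0 to 4 of the 10 called over the 4 mice, and 405 to 2400 of all genes against 2568. In PyMT-Dll1GFP mice 3 were called without either PyMT-Dll1mCh mouse. In PyMT-Dll1mCh mice 0 were called without either PyMT-Dll1GFP mouse, and 1069 and 905 of all genes against 2154. Without the replicate block 0 of the 10 genes were called over the 4 mice, 0 in PyMT-Dll1GFP and 0 in PyMT-Dll1mCh mice. Over all genes, 0, 274 and 212 were called in these comparisons, against 2568, 1673 and 2154 with the block. With the reporter in place of the mouse, added after seeing the data, 0 of the 10 were called over the 4 mice (1352 of all genes against 2568), and the adjusted p of Nfkbia was 0.0698 at a log2 fold change of 0.70. With each reporter fitted alone, 0 of the 10 and 0 of all genes were called in PyMT-Dll1mCh mice, against 2154 of all genes in the main fit. In PyMT-Dll1GFP mice the same setting called 3 of the 10, and 2337 of all genes against 1673. In the difference between reporters 1 was called with DESeq2 and 1 without a filter, Tnfaip3. With the mouse as a random replicate block in limma-voom, 1 was called between reporters in Dll1- cells, Rel. The causes were not tested.

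Sign changes were seen only for values not called in either fit. The log2 fold change of Nfkbib in PyMT-Dll1GFP mice was 0.01 with RLE, DESeq2, no filter and each reporter alone, 0.00 with at least 10 counts and 0.05 after thinning. The difference of effects became -0.01 for Nfkb2 with RLE, DESeq2, no filter and thinning, and -0.01 for Rela with the first 3 of these. Leaving out a mouse moved the difference of effects between -0.18 and 0.18 for Rela, -0.37 and 0.20 for Nfkbie, -0.33 and 0.08 for Nfkb1, -0.10 and 0.07 for Nfkb2, and -0.10 and 0.20 for Nfkbib. It moved Nfkbib between -0.01 and 0.09 over the 4 mice and -0.15 and 0.15 in PyMT-Dll1GFP mice, and Rel between -0.25 and 0.09 in PyMT-Dll1mCh mice. Between reporters, Rela moved between -0.04 and 0.21 in Dll1- and -0.23 and 0.36 in Dll1+ cells, and in Dll1- cells Nfkb1 between -0.41 and 0.06 and Nfkbia between -0.49 and 0.08.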
